A study of Saccharomyces cerevisiae with 2 samples.

Results

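The mitochondrial ribosomal protein genes of Saccharomyces cerevisiae were measured after 3 hours of cell wall digestion. Members were chosen by name: each open reading frame on the array was given its standard symbol from RefSeq, and those whose symbol is MRP, MRPL, MRPS or RSM followed by a number were kept. This rule found 65 of the 6207 yeast genes in the table. Of these, 20 had a ratio on both arrays, 17 on 1 array only and 28 on neither. The rule used no measured value. MRP8 meets the name rule, but its product is no longer held to be a ribosomal protein, and it was valued on array 2 only.

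The series compared RNA from msn2/4 mutant yeast given zymolyase with RNA from untreated msn2/4 mutant yeast, and both carry the mutation, named after Msn2 and Msn4, transcription factors of the general stress response, so nothing here measures their contribution. Zymolyase is a mixture of lytic enzymes that breaks down cell wall glucan. A culture growing in YEPD, a rich glucose medium, at 24 °C was split, and 1 part received 5 units of zymolyase per ml. The 2 arrays were taken as a dye swap of the same pair of extracts. On array 1 the zymolyase RNA carried Cy3 and the untreated RNA Cy5, and on array 2 the dyes were exchanged. The series describes 1 culture for this mutant, although the sample descriptions mention more than 1, so the arrays were counted as 1 biological replicate. The conditions therefore could not be tested against each other, no p-value is given, and every SD below is over the 2 hybridisations (n = 2). If the arrays hold different cultures, each SD also takes in the difference between those cultures. MSN2 and MSN4 had no ratio on either array, so the genotype could not be checked.

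Mitochondrial ribosomes translate the few messages of the mitochondrial genome, which in yeast encode mainly core subunits of the respiratory chain and the ATP synthase. Nearly all of their proteins are encoded in the nucleus, made in the cytosol and imported. Many descend from bacterial ribosomal proteins and carry a conserved name, with u for universal and b for bacterial families; others, with the prefix m, are particular to mitochondria. Yeast growing on glucose ferments and needs little respiration, and messages of these proteins are known targets of the RNA-binding protein Puf3 in yeast.

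The deposited values are log2 ratios whose numerator is not stated. The sign of array 2 was turned before averaging, a choice made after the values were seen and based on genes with the largest ratios: 26 of the 37 genes that exceeded 4-fold on each array had opposite signs as deposited, as a dye swap gives where the difference between conditions is large. Beyond 2-fold the share was 142 of 365, and over all 2254 genes 60.2% shared a deposited sign. After the turn the arrays correlated negatively, with a Spearman rho of -0.31 across the 2254 genes and -0.47 across the 20 members valued on both arrays. These values go against the turn, which is therefore an assumption. The rounding of the lowest values, described under the processing, shows that array 2 was deposited with the opposite sign to its rounded ratio. Array 1 was deposited with the same sign as its own. The turn goes back to the rounded ratio of array 2, and whether the sign change before deposit had already aligned the arrays was not tested. No mitochondrial ribosomal protein gene was beyond 4-fold on both arrays, and the 2 beyond 2-fold on both, RSM10 and MRPL36, had the same deposited sign. Positive ratios are likely zymolyase over untreated, on the ground that cell wall genes reported elsewhere to be raised by zymolyase are then positive: SLT2, the MAP kinase of cell wall integrity, was deposited at 4.08 on array 1 and -1.996 on array 2, CRH1, a wall transglycosylase, at 3.15 and -1.54, and PIR3, a wall protein, at 3.73 and -2.70. These 3 were chosen with their values known. The ratios compare shares of 2 labelled RNA pools, so less of a message and more of all others cannot be told apart. If the untreated RNA is the numerator, every sign given here is the other way round. The half-difference of the arrays, which equals the mean of the 2 deposited values, is given beside the mean ratio; if the turn is right, it holds what follows the dye and not the condition.

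With the sign of array 2 turned, the arrays gave opposite pictures of this group. As deposited, 13 of the 20 genes valued on both arrays shared a sign (65.0%, against 60.2% of all genes). On array 1, 18 of the 20 genes valued on both arrays had a negative ratio, against 58.2% of all 2254 such genes. On array 2, with its sign turned, 13 of the 20 were positive, against 34.1% of all genes. The median ratio was -2.16 on array 1 (quartiles -2.64 and -1.56) and 0.40 on array 2 (quartiles -0.20 and 0.83), where the medians of all genes were -0.31 and -0.39. The 12 genes that were negative on array 1 and positive on array 2 made up 60.0% of the group, against 26.3% of all genes. A further 6 were negative on both arrays, among them RSM26 with only -0.003 on array 2. MRPL51 was positive on both, and MRPS9 was just above 0 on array 1 and negative on array 2. Array 1 lay below array 2 for 19 of the 20 genes, against 47.7% of all genes.

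The mean of the arrays was negative for 19 of the 20 genes, against 76.0% of all genes, and the group median was -0.995 (quartiles -1.28 and -0.60), against -0.37 for all genes. The median half-difference was of the same size, -1.01, against 0.07 for all genes. A gene was counted as 2-fold negative or positive when its mean ratio was at least 1 unit of log2 away from 0 and its arrays shared a sign. By that rule 5 of the 20 genes were 2-fold negative (25.0%, against 13.6% of all genes) and none was 2-fold positive (2.88% of all genes). A further 5 reached 2-fold in the mean while their arrays pointed in opposite directions, and these were not counted; in all, 10 of the 20 had a mean past 2-fold negative whatever the signs (50.0%, against 19.7% of all genes), and the uncounted ones made up 25.0%, against 6.03%. With array 2 as deposited, so that the half-difference takes the place of the mean, 9 of the 20 were 2-fold negative (45.0%, against 13.7% of all genes) and none was positive (12.3% of all genes). With array 2 turned, the negative sign of the group median rested on array 1: array 2 alone gave 0.46 over the 36 genes valued there, and array 1 alone gave -2.08 over 21.

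**Figure D1:**
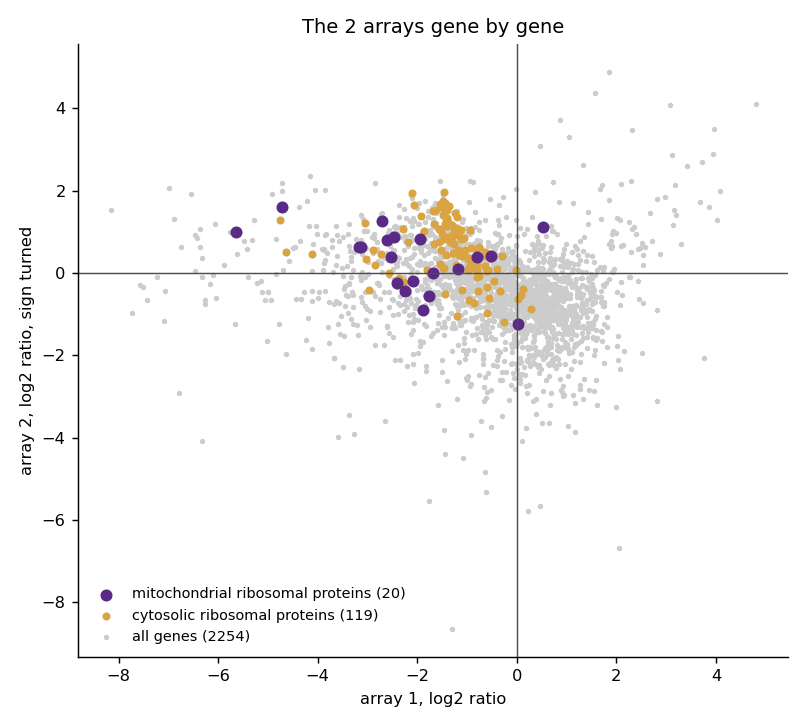
Each point is a gene valued on both arrays, with the array 1 log2 ratio on the horizontal axis and the array 2 log2 ratio, sign turned, on the vertical axis; mitochondrial ribosomal proteins, cytosolic ribosomal proteins and all genes are coloured apart. Of the 20 mitochondrial ribosomal protein genes, 12 lie in the upper left, negative on array 1 and positive on array 2.

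The lowest single ratio was that of MRPL28, a large subunit protein without a bacterial counterpart (mL40), at -5.64 on array 1 and 0.99 on array 2. Its mean of -2.32 ± 4.69 (SD, n = 2 arrays) was the lowest of the group, but the arrays disagreed in sign. Without MRPL28 the group median was -0.91.

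In the large subunit, 12 of 37 genes were valued on both arrays. MRPL7, the uL5 protein of the central protuberance, had -1.88 on array 1 and -0.91 on array 2. Its mean was -1.39 ± 0.68, and it was the gene of the group with the lowest mean among those negative on both arrays. MRPL22, the uL22 protein that lines the exit tunnel, had -2.08 and -0.19, with a mean of -1.14 ± 1.34. These 2 were the large subunit genes counted as 2-fold negative.

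MRPL11, the uL10 protein at the base of the stalk that recruits translation factors, had -3.16 on array 1 and 0.63 on array 2, a mean of -1.27 ± 2.68. MRP20, the uL23 protein at the mouth of the exit tunnel, had almost the same pair of values, -3.12 and 0.63, and a mean of -1.24 ± 2.65. Both means were past 2-fold, but the arrays pointed in opposite directions and neither gene was counted. MRPL6 (uL6), near the site where translation factors bind, had -2.62 and 0.79. MRPL49 (bL21) had -2.46 and 0.88, and MRPL36 (bL31) had -2.70 and 1.27. The means of these 3 genes were -0.91 ± 2.41, -0.79 ± 2.36 and -0.72 ± 2.80, each with an SD larger than the size of the mean.

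MRPL9, the uL3 protein that reaches towards the peptidyl transferase centre, had -1.94 on array 1 and 0.81 on array 2, a mean of -0.57 ± 1.95. MRPL35, the mitochondria-specific mL38, had -0.79 and 0.38, with a mean of -0.21 ± 0.83. MRPL1, the uL1 protein of the mobile stalk by the exit site for transfer RNA, had -0.51 and 0.41 and a mean of -0.05 ± 0.66, the closest to 0. MRPL51, the mitochondria-specific mL43, stood apart as the one gene of the 20 with a positive mean: it had 0.53 on array 1 and 1.11 on array 2, a mean of 0.82 ± 0.41 (1.77-fold), with the smallest SD of the group.

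In the small subunit, 8 of 27 genes were valued on both arrays. RSM10, the uS10 protein of the subunit's head, had -4.72 on array 1 and 1.61 on array 2, and a mean of -1.56 ± 4.47 that was not counted. RSM23 (mS29), a GTP-binding protein whose mammalian counterpart is DAP3, had -2.24 and -0.44, a mean of -1.34 ± 1.28. MRP4, the uS2 protein, had -2.40 and -0.24, a mean of -1.32 ± 1.53. MRPS35, the mitochondria-specific mS45, had -1.76 and -0.56, a mean of -1.16 ± 0.85. RSM23, MRP4 and MRPS35 were the 3 small subunit genes counted as 2-fold negative.

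MRPS5, the uS5 protein at the channel through which messenger RNA enters, had -2.53 on array 1 and 0.38 on array 2, a mean of -1.08 ± 2.06 with opposite signs. RSM26 (mS42), which has the fold of a superoxide dismutase, had -1.68 and a value of -0.003 on array 2, and its mean was -0.84 ± 1.19. MRPS9, the uS9 protein whose tail reaches the transfer RNA at the peptidyl site, was the one gene of the 20 that was lower on array 2, with 0.03 and -1.25 and a mean of -0.61 ± 0.90. MRP51, a bS1-family protein tied by yeast genetics to the leaders of mitochondrial messages, had -1.18 and 0.09, a mean of -0.54 ± 0.90. Apart from MRPS9, every small subunit gene valued on both arrays was below 0 on array 1, and on array 2 these 7 lay on both sides of 0.

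**Figure D2:**
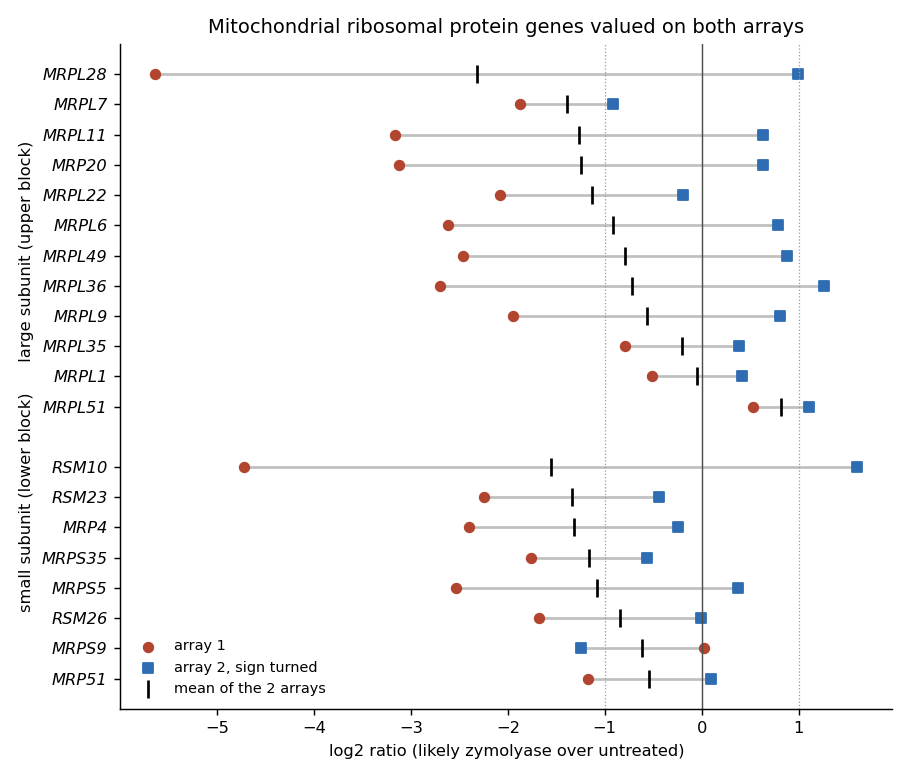
Each row is a mitochondrial ribosomal protein gene valued on both arrays, with its log2 ratio on array 1 (circle), on array 2 with the sign turned (square) and their mean (bar); the grey line spans the arrays and dotted lines mark 2-fold. The circle lies left of the square in 19 of 20 rows, and the arrays fall on the same side of 0 in 7.

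The rule of a shared sign separates the 2-fold negative genes by their array 2 values, and the ranges on either side of it are given as a description. The 5 counted genes ranged from -2.40 to -1.76 on array 1 and from -0.91 to -0.19 on array 2, with SDs of 0.68 to 1.53. Among them MRP4 and MRPL22 also had an SD larger than the size of the mean, and the others did not. The 5 not counted ranged from -5.64 to -2.53 on array 1 and from 0.38 to 1.61 on array 2, with SDs of 2.06 to 4.69. The counted genes were 879 to 1353 bases long and the others 444 to 924. None of the 20 genes was 2-fold negative on each array (4.61% of all genes), and none was 2-fold positive on each (1.69%). On array 1 alone 16 of 21 genes were past 2-fold negative (76.2%, against 35.4% of all genes valued there) and 1, MRPS8, was past 2-fold positive (4.76%, against 12.2%). On array 2 alone 4 of 36 were past 2-fold negative (11.1%, against 25.9% of all genes valued there), while 9 were past 2-fold positive (25.0%, against 9.29%).

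The 2-fold counts depended on where each array's 0 was set. When each array was centred on its median over all genes, 1 gene was 2-fold negative (7.63% of all genes) and 1 was 2-fold positive (4.97% of all genes). The first was MRPL7, with a centred mean of -1.05, and the second MRPL51, with 1.17; RSM23 and MRP4 had centred means of -0.996 and -0.97. Rescaling the centred arrays to a common spread left 0 genes negative (7.45% of all genes) and 1 positive (4.84% of all genes). A limit of 1.5-fold without centring gave 6 negative (22.8% of all genes) and 1 positive (also 4.84%). The negative gene added by this limit was RSM26, with -0.003 on array 2.

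The subunits were compared by their medians. The mean ratio had a median of -0.85 in the large subunit (12 genes) and -1.12 in the small subunit (8 genes). Their array 1 medians were -2.27 for the large and -2.003 for the small subunit. On array 2 they were 0.71 and -0.12. There 10 of 12 large subunit genes and 3 of 8 small subunit genes were positive, against 34.1% of all genes valued on both arrays. The small subunit count was thus near the share of all genes. With members valued on array 2 only included, the counts were 18 of 23 and 5 of 12. The large subunit genes were shorter, with a median length of 771 bases against 979.5 in the small subunit; the part of length in this difference was not tested. Proteins with a bacterial counterpart (14 genes) and mitochondria-specific ones (6 genes) had nearly equal median mean ratios, -0.995 and -1.003. Of these, 3 of 14 and 2 of 6 were counted as 2-fold negative, where 13.6% of all genes were; with so few genes nothing is read from the counts.

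Of the genes valued on 1 array only, 16 had a ratio on array 2 and MRPS8 (uS8) had one on array 1, a positive 1.34. Among all genes, 664 were valued on array 2 only and 174 on array 1 only. The 16 had a median of 0.51 after the turn, against -0.45 for the 664, and 11 of them were positive, against 35.4% of the 664. They ranged from -3.10 to 2.18.

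Past 2-fold positive were 6 of the 16, against 12.2% of the 664 genes valued on array 2 only. MRPL31 (mL60) had the highest ratio, 2.18, followed by MRPL27 (mL41) at 1.80 and MRPL37 (mL54) at 1.69, which are 3 short mitochondria-specific proteins of the large subunit. MRPS12, the uS12 protein of the decoding centre, had 1.67, MRPL16 (uL16) had 1.34 and MRPL8 (bL17) had 1.15. Past 2-fold negative were 3, against 30.4% of the 664: MRPS17 (uS17) at -3.10, MRPL3 (mL44) at -1.48 and MRPL10 (uL15) at -1.38. The other 7 lay within 2-fold of 0. They were MRPL32 (bL32), which in yeast is matured by a mitochondrial inner membrane protease, at 0.56, MRPL13 (mL50) at 0.55, RSM28 (mS46) and MRPL38 (uL14), both at 0.46, MRP8 at 0.09, MRPS18 (uS11) at -0.44 and MRP7 (bL27), which reaches to the peptidyl transferase centre, at -0.58. None of these 17 genes has a second array behind it, so their dye and condition components cannot be told apart.

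The 28 genes without a ratio were 14 of the large and 14 of the small subunit. They were MRP1, MRP2, MRP13, MRP17, MRP21, MRP35, MRP49, MRPL4, MRPL17, MRPL19, MRPL20, MRPL23, MRPL24, MRPL25, MRPL33, MRPL39, MRPL40, MRPL44, MRPL50, MRPS16, MRPS28, RSM7, RSM18, RSM19, RSM22, RSM24, RSM25 and RSM27. Genes with no ratio on either array made up 43.1% of the group, against 50.2% of all genes, and genes with both made up 30.8%, against 36.3%. The genes without a ratio were short, with a median length of 484.5 bases, against 823.5 bases for the 20 with both. The sources used here do not say what removed the missing values.

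Gene length, taken as the span of the gene, moved with these ratios. The 65 genes had a median length of 699 bases, against 1245 for all genes with a RefSeq match. On array 2 the ratio was higher in shorter genes: Spearman's rho with length was -0.73 over the 36 genes of the group, against -0.46 over 2820 genes. Of the 28 under 1000 bases 21 were positive on array 2, with a median of 0.63; of the 8 of 1000 bases or more 3 were, with a median of -0.34. All genes gave array 2 medians of 0.22 under 1000 bases and -0.68 at or above it. Of the 2918 genes of any length valued on array 2, 65.6% were negative there, and shares by length were not computed. On array 1 the sign of rho was the other way, and its size was smaller: 0.21 over 21 genes of the group and 0.27 over 2339 genes. Without MRPS8, the gene valued on array 1 only, it was 0.37 over 20, against 0.34 over the 2174 genes valued on both arrays. The half-difference was higher in longer genes, with a rho of 0.45 over the 20 genes and 0.46 over 2174.

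For the mean ratio, rho with length was -0.05 over the 20 genes and 0.03 over 2174. Under 1000 bases the median mean ratio was -0.91 in 15 genes of the group, against -0.40 in 768 of all genes. At 1000 bases or more it was -1.16 in 5 genes, against -0.35 in 1406. The array 1 median of the 15 shorter genes was -2.46, against -1.15 for all genes of that length. In the 5 longer ones it was -1.76, against 0.11. These correlations are across genes measured on the same 2 arrays and are descriptions, and the part of length in the ratios of the group was not tested. The 1000-base limit was set after the values were seen.

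**Figure D3:**
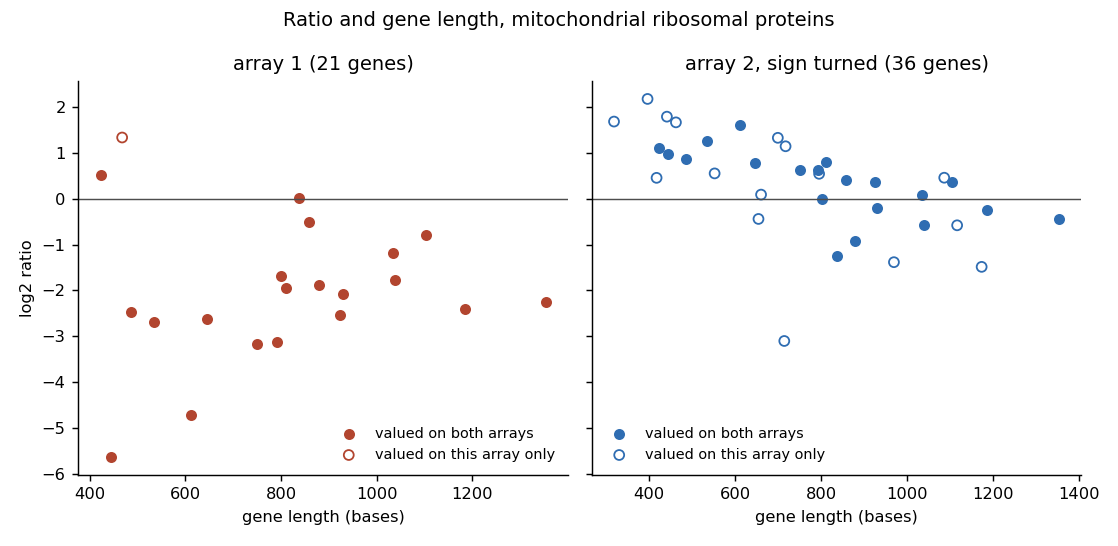
Log2 ratio against gene length in bases for the mitochondrial ribosomal protein genes on array 1 (left, 21 genes) and on array 2 with the sign turned (right, 36 genes); open points are genes valued on that array only. On array 2 the ratio is lower in longer genes (rho = -0.73), and on array 1 the order by length is weaker and runs the other way (rho = 0.21, and 0.37 without the 1 open point).

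Other genes of mitochondrial translation were measured more thinly. Of 14 mitochondrial ribosomal proteins whose symbols fall outside the name rule, 12 were in the table and 5 had both values, with a median of -0.61 and array medians of -2.13 and 0.77. EHD3 (mS47), which also acts as a hydrolase in valine breakdown, had -3.45 and -0.33, and its mean of -1.89 ± 2.21 made it the 1 of the 5 counted as 2-fold negative. IMG1 (bL19) had -2.87 and 0.95, a mean of -0.96 ± 2.70. RML2 (uL2) and IMG2 (mL49) had means of 0.07 ± 0.05 and 0.60 ± 0.25. None of the 5 was 2-fold positive. Over all genes 13.6% were counted as 2-fold negative and 2.88% as 2-fold positive, and with 5 genes nothing is read from these counts.

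Assembly and ribosomal RNA factors had 4 of 13 genes valued on both arrays, and MTG2, a GTPase of large subunit assembly, was counted as 2-fold negative. Its arrays were nearly equal, -1.16 and -1.13, for a mean of -1.15 ± 0.02. RMD9, an RNA-binding protein, had -0.64 ± 0.59, MAM33 -0.41 ± 0.81 and MSS51, listed here although it acts on the COX1 message, 0.004 ± 0.096. Among the translational activators, proteins that act on single mitochondrial messages, AEP2 was counted as 2-fold negative at -2.09 and -2.21, a mean of -2.15 ± 0.08, and CBP6 had 0.14 ± 0.63; the other 12 lacked a value on at least 1 array. Of 14 mitochondrial aminoacyl-tRNA synthetases only MSK1 (-0.42 ± 0.13) and SLM5 (0.22 ± 0.44) had both values, and neither was counted. None of 11 mitochondrial translation factors had both. As 13.6% of all genes were counted as 2-fold negative, nothing is read from single counted genes in lists this small.

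For comparison, 17 nuclear genes of the respiratory chain and the ATP synthase had array medians of -1.74 and 0.40, and 119 cytosolic ribosomal protein genes had -1.28 and 0.56, so that the medians of both lists were negative on array 1 and positive on array 2. The median mean ratio was -0.995 for mitochondrial ribosomal proteins, against -0.39 for the respiratory list and -0.27 for cytosolic ribosomal proteins. The 2-fold negative counts were 5 of 20, 1 of 17 and 6 of 119, or 25.0%, 5.88% and 5.04%, against 13.6% of all genes. With array 2 as deposited they were 9 of 20, 8 of 17 and 57 of 119, against 13.7% of all genes. The median half-differences were nearly alike, -1.01, -1.03 and -1.03. The median lengths were 823.5, 597 and 809 bases, but these are spans of the gene that include introns, and 46 of the 119 cytosolic genes have a span that is not a multiple of 3, so the last is not comparable with the first. With both arrays centred on their own medians, the mean ratios had medians of -0.65, -0.05 and 0.07.

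In the respiratory list QCR6, a subunit of the cytochrome bc1 complex, was the 1 gene counted, with -3.30 and -1.24 and a mean of -2.27 ± 1.46. ATP7, a subunit of the ATP synthase stalk, had a mean of -2.34 ± 4.43 with opposite signs. At the other end ATP2 and ATP3, the beta and gamma subunits, had 0.52 ± 1.38 and 0.23 ± 0.20.

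**Figure D4:**
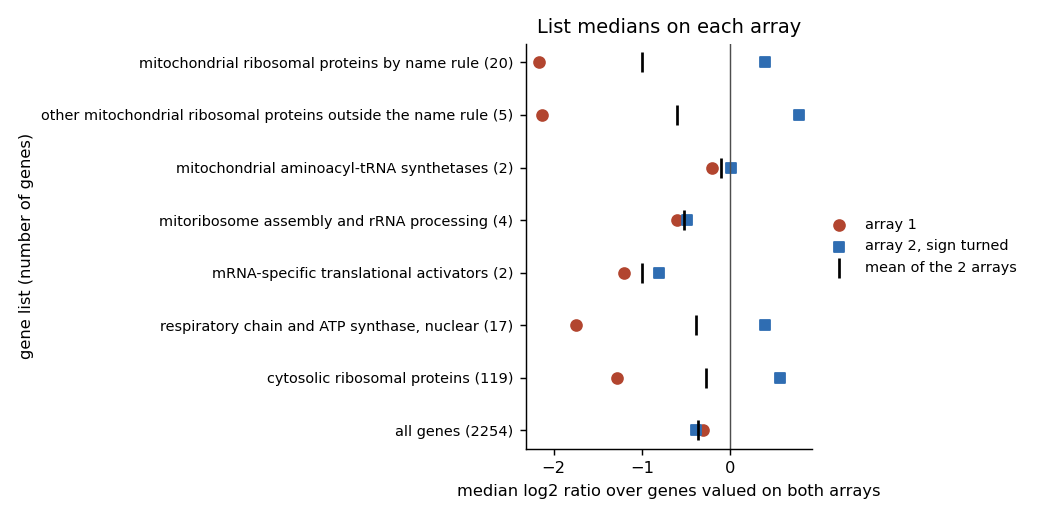
Median log2 ratio of each gene list over its genes valued on both arrays (number in brackets), on array 1 (circle), on array 2 with the sign turned (square) and for the mean of the arrays (bar). The mitochondrial ribosomal protein medians are -2.16, 0.40 and -0.995, and those of all genes -0.31, -0.39 and -0.37.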

How the data were processed

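Per the labels, total RNA of both conditions was reverse transcribed with Cy5 or Cy3 and hybridised to 2 arrays. The authors deposited 1 log2 ratio per gene and array; scanner, background correction, normalization, centring and the filter that left genes without a value are not given in the sources used here. The values themselves show the log base: all 387 array 1 values below -2, and all 239 of array 2 after the turn, were the log2 of whole multiples of 0.0001 within rounding. On array 1 the rounded ratio thus lies under the values as deposited, and on array 2 under the values with their sign turned. Which RNA was the numerator of either rounded ratio is not given. For these values the turn thus goes back to the rounded ratio of array 2, whose sign was the opposite of the deposited one. Whether the sign change before deposit had already put both arrays in the same orientation, which the turn would then undo, was not tested. No signal intensities were used, so the brightness behind each ratio is unknown.

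Of 6209 rows, 2 are control spots and were left out. RefSeq R64 symbols matched 5654 names by locus tag; gene lengths are spans in the same table, introns included, and no coordinates or sequences are printed. Conserved ribosomal names were checked against RefSeq synonyms and matched for all 63 members that have one. Ratios were used without recentring. Means, SDs, medians, counts and Spearman correlations were computed with Python 3.11.15, pandas 2.3.3 and numpy 2.4.6, after a check on simulated data. The simulated condition effect was reversed on array 2 by design, so that check covers the code and cannot bear on the turn. Every member with a value is named; of other lists, the 2 lowest and 2 highest means and those counted as 2-fold with the same sign on both arrays (cytosolic ribosomal proteins are given as counts only). The members, lists and settings were chosen with earlier results of these data known.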

Additional observations from a re-analysis of the deposited data

How the results depend on the processing

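With every sign turned the medians were 0.995 for the group, 0.85 for the large and 1.12 for the small subunit, by construction, and the 2-fold counts were 0 negative and 5 positive. From 1 array alone the group median was -2.08 (array 1) or 0.46 (array 2), the large subunit median -2.27 or 0.63 and the small subunit median -1.76 or -0.12; the 2-fold negative count was 16 or 4 and the positive count 1 or 9. The cause of the disagreement was not tested. Centring each array made the counts 1 negative (MRPL7) and 1 positive (MRPL51); rescaling as well made them 0 and 1. The group median was then -0.65 and -0.42. With array 2 as deposited it was -1.01, and 9 genes were negative. A limit of 1.5-fold gave 6 negative and 1 positive, and 2-fold on each array gave 0 and 0. Arrays within 1 of each other were found for 3 genes (median -0.05, 1 negative), and the shares over all genes were not computed for this setting. The median SD over the 2 arrays was 1.43 for the 20 genes and 0.99 for all 2254. Centring moved the array 1 median to -1.77 and the array 2 median to 0.85. It gave aminoacyl-tRNA synthetases 0.25 and cytosolic ribosomal proteins 0.073, both negative without it, and moved assembly factors to -0.18 and translational activators to -0.66; with array 2 as deposited these last lists had -0.040 and -0.19. Moving MSS51 to the translational activators, added after seeing the data, gave that list a median of 0.00375 over 3 genes, positive in place of negative, and assembly factors -0.64. Leaving out MRP8 changed no 2-fold count and left 35 genes valued on array 2, with a median of 0.46. No paired analysis was possible because the arrays form 1 group. Both arrays were counted as 1 culture per condition, although the sample descriptions mention more than 1, so the spread between cultures is unknown.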
